A study of Mus musculus with 14 samples.

Results

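The genes described here are 10 members of the Fanconi anaemia pathway: Fancm, which anchors the pathway's core complex on DNA, the core complex genes Fanca, Fancb, Fancc, Fance, Fancg and Fancl, the ubiquitin-conjugating enzyme Ube2t, and the pair Fancd2 and Fanci. They were taken by name, and each was followed as the sum of its transcripts' estimated counts and set against Mki67, a marker of cycling cells, in the same library. All 10 passed the filter on low counts, which kept 24592 of 34049 genes with any count. The libraries are bulk RNA-seq of mouse hair follicle stem cells, sorted from digested back skin as CD34-positive, Ly-6A/E-negative cells that were also positive for a marker written CD45f. They form 4 groups by age and genotype: Irx5KO at postnatal day 18 (P18, n = 3), WT at P18 (n = 3), Irx5KO at postnatal day 20 (P20, n = 4) and WT at P20 (n = 4). The series' title puts the transcription factor IRX5 together with DNA damage repair and stem cell activation. How the Irx5 allele was made, which part of the gene it removes and which strain was used is not given in the labels, nor is the animal behind each library. The p-values therefore measure how far these libraries spread, part of which may be technical.

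The Fanconi anaemia pathway repairs crosslinks between the strands of DNA and protects stalled replication forks. FANCM brings the core complex to the damage, the FANCL subunit of that complex works with the UBE2T enzyme to attach ubiquitin to FANCD2 and FANCI, and the modified FANCD2-FANCI pair clamps DNA and recruits nucleases and homologous recombination factors. Loss of the pathway in mice and humans is best known for its effect on blood stem cells and germ cells, tissues in which stem cells must pass from rest into division. Hair follicle stem cells rest in the bulge of the follicle and enter division when a new hair cycle begins.

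The P20 libraries fell into 2 sets by a 6-digit code in the deposited data that reads as a date, libraries 1 and 2 on the later code and libraries 3 and 4 on the earlier code. The genotype difference changed sign between the sets for Fancd2, Fanca and Fanci, and for Mki67 and Irx5. Each of these passed the test of that change given below, as did 3.92% of all genes tested. The sign also differed for Fance and Fancg, which did not pass that test (edgeR adjusted p = 0.717 and 0.441). The share of all genes whose sign differed was not counted. Irx5 itself had 31.5 and 18.7 counts-per-million (CPM) in Irx5KO libraries 1 and 2, against 126 and 73.8 CPM in WT libraries 1 and 2. It went against the labels in libraries 3 and 4, with 195 and 182 CPM where the label was Irx5KO, against 39.0 and 43.0 CPM where it was WT. Over all P20 libraries Irx5 averaged 107 ± 94.6 CPM in Irx5KO and 70.5 ± 40.3 CPM in WT (SD, n = 4 each, exact two-sided permutation p = 0.486, where the smallest possible is 0.0286). At P18 it averaged 69.2 ± 14.6 CPM in Irx5KO and 93.4 ± 38.1 CPM in WT (SD, n = 3 each, exact permutation p = 0.5, smallest possible 0.1). The deposited data of P18 WT library 3 carry the mark het, although its title says WT, and it was kept as WT. Libraries held between 13618367 and 70083873 estimated counts. All 7 bulge markers were detected, with Krt15 between 3413 and 19720 CPM, and T cell markers summed to between 4.66 and 68.2 CPM. In P18 WT libraries 1 and 2 and P20 WT library 2, olfactory and vomeronasal receptor genes (symbols starting with Olfr or Vmn) took 1.80%, 5.45% and 2.41% of counts, against at most 0.611% in the other 11. These libraries are called receptor-rich below. At P18, Ddx3y, a gene on the Y chromosome, had at most 0.633 CPM in Irx5KO library 1 and WT libraries 1 and 2. These are the P18 libraries on the earlier code. At P20 it had 0.393 CPM in Irx5KO library 1 and 0.149 CPM in WT library 1. All other libraries had 42.3 to 151 CPM of Ddx3y. Sex was not used in the fits, and its part in the results was not tested. Genotypes at P20 are given below as labelled, separately for each set.

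In P20 libraries 1 and 2 Fancd2 was lower in Irx5KO, and Fanca and Fanci, although lower in CPM in both Irx5KO libraries, did not pass the test. In P20 libraries 3 and 4 Fancd2, Fanci and Fanca were all higher in the libraries labelled Irx5KO. Fancm, Fancb, Fancc, Fance, Fancg, Fancl and Ube2t passed in neither set. In bulk samples, fewer dividing cells and less RNA per cell cannot be told apart. In both sets the genotype with the higher Irx5 CPM was also that with the higher Mki67, Fancd2, Fanca and Fanci CPM.

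**Figure D1:**
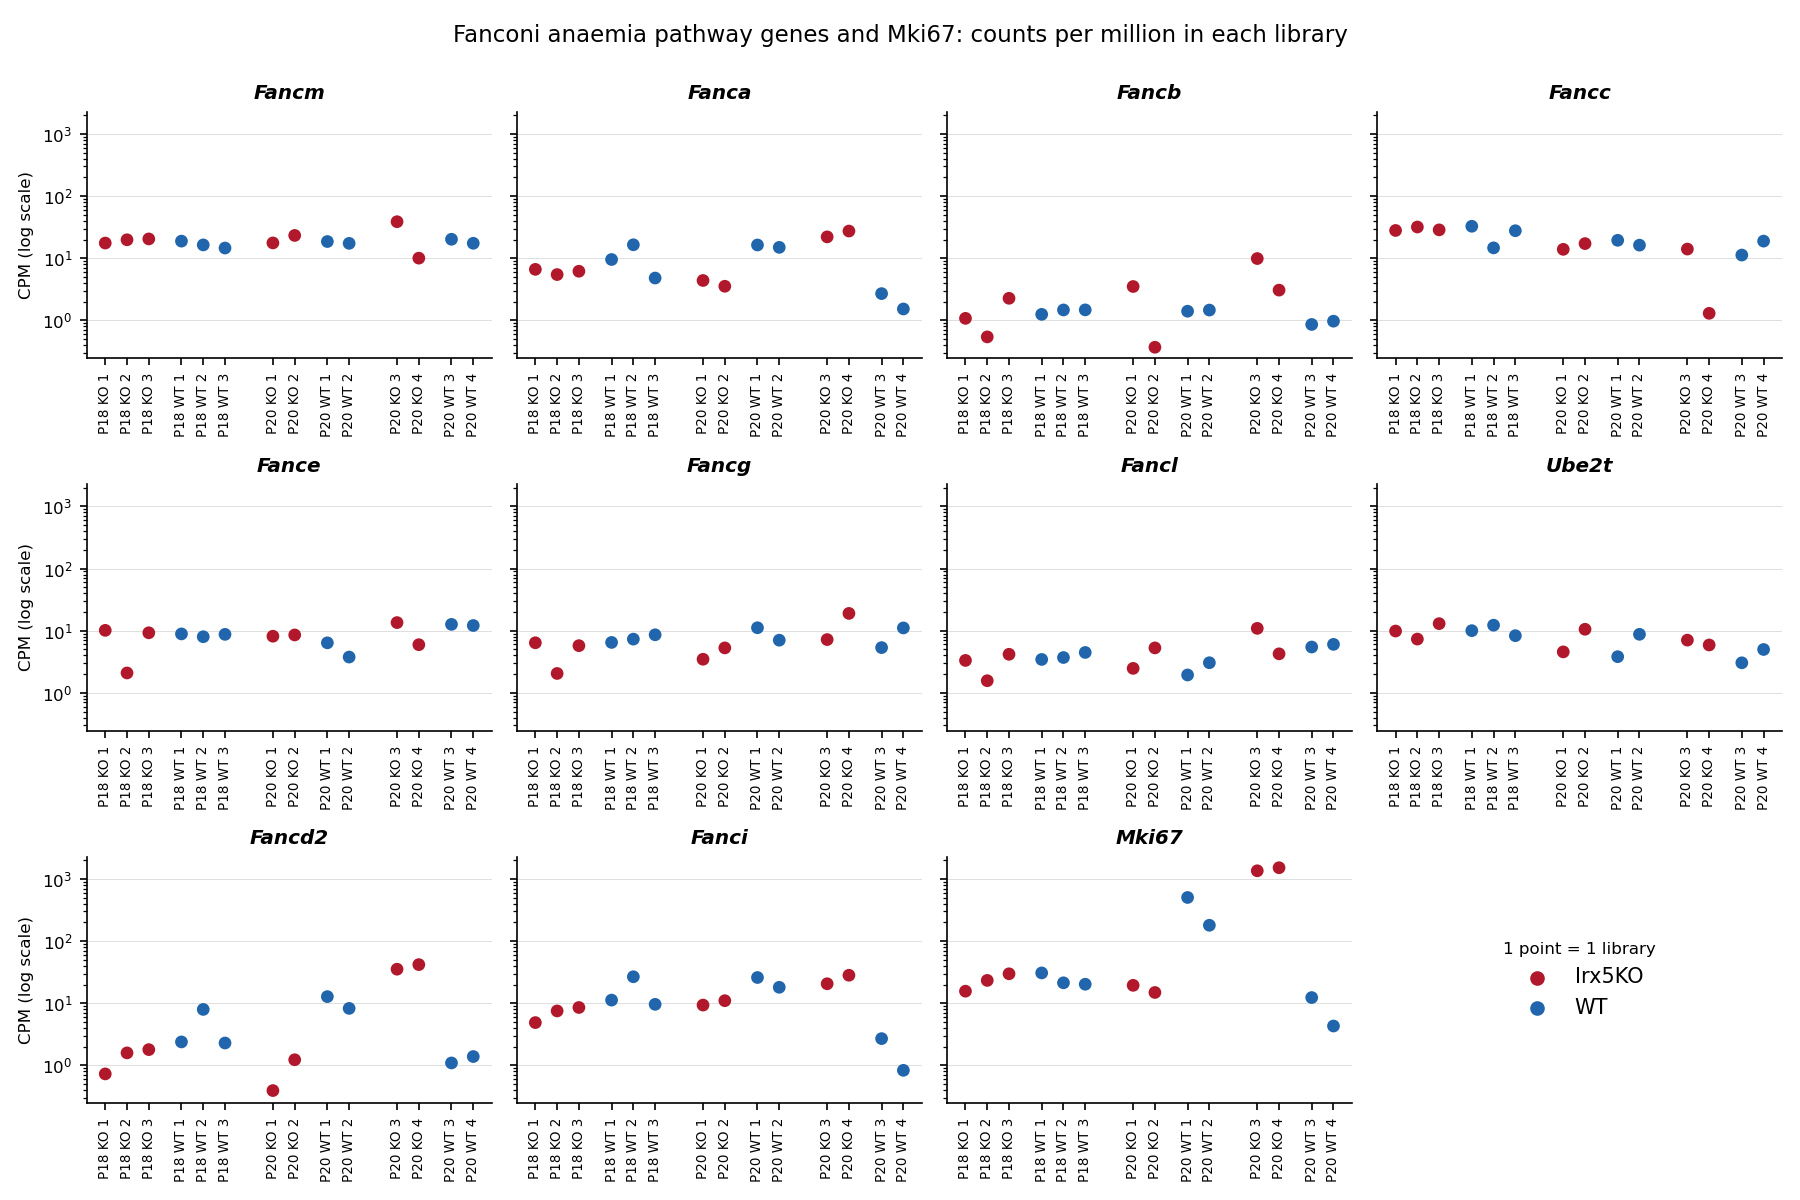
CPM (log axis) of the 10 Fanconi anaemia pathway genes and Mki67 in each of the 14 libraries, Irx5KO (written KO) in red and WT in blue. Fancd2 ranges from 0.393 to 41.8 CPM and peaks in the P20 libraries labelled Irx5KO 3 and 4, as Mki67 does, whereas Fancm stays between 10.02 and 38.7 CPM.

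Fancd2 encodes the component whose monoubiquitination marks the pathway as active. In P20 libraries 1 and 2 it had 0.393 and 1.23 CPM in Irx5KO (13 and 40 counts), against 12.8 and 8.25 CPM in WT (428 and 265 counts). In P20 libraries 3 and 4 it had 35.3 and 41.8 CPM in libraries labelled Irx5KO (475 and 709 counts), against 1.09 and 1.39 CPM in those labelled WT (28 and 20 counts). The groups did not overlap in either set, and the order of the genotypes was opposite. With so few libraries in a group, separation alone is weak evidence, here and below. The share of all genes that separated was not counted. At P18 Fancd2 had 0.728, 1.59 and 1.79 CPM in Irx5KO, against 2.38, 7.94 and 2.29 CPM in WT. All P18 Irx5KO values lay below all P18 WT values, and the receptor-rich WT library 2 was the highest.

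In P20 libraries 1 and 2 the log2 difference of Fancd2 (Irx5KO minus WT) was -3.69 ± 0.71 (SE, edgeR quasi-likelihood test, adjusted p = 0.0154). It was the only one of the 10 genes to pass in edgeR, and it passed with DESeq2 as well (adjusted p = 8.85e-05). For comparison, 101 of all 24592 genes, 0.411%, passed as lower there, and 0.472% passed in either direction. This call rests on few counts in the Irx5KO libraries and was not stable. Its adjusted p under edgeR was 0.366 without Irx5KO library 1, 0.0881 without Irx5KO library 2, 0.0994 without WT library 1 and 0.0666 without libraries 3 and 4 in the fit. It also failed with limma voom (adjusted p = 0.393), with protein-coding transcripts alone (log2 difference -4.45, edgeR adjusted p = 0.163) and with transcript length offsets, where the log2 difference shrank to -1.71 (edgeR adjusted p = 0.808). The log2 difference of Fancd2 in libraries 3 and 4 was 4.96 ± 0.76 (edgeR adjusted p = 3.56e-04), and 388 genes, 1.58% of those tested, passed as higher, of 4.18% in either direction.

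Fanci encodes the partner of FANCD2 in the clamp. In P20 libraries 1 and 2 Fanci had 9.34 and 10.98 CPM in Irx5KO, against 25.9 and 18.03 CPM in WT. In P20 libraries 3 and 4 it had 20.6 and 28.2 CPM in libraries labelled Irx5KO, against 2.69 and 0.831 CPM in those labelled WT. The lowest value of all 14 libraries was in WT library 4, with 12 counts. The log2 difference was -1.11 ± 0.54 in libraries 1 and 2 (edgeR adjusted p = 0.936) and 3.76 ± 0.60 in libraries 3 and 4 (edgeR adjusted p = 6.3e-04). Fanca encodes a core complex subunit, and it is the gene most often mutated in human Fanconi anaemia. Fanca had 4.38 and 3.54 CPM in P20 Irx5KO libraries 1 and 2, against 16.3 and 15.0 CPM in WT libraries 1 and 2. It had 22.1 and 27.4 CPM in libraries labelled Irx5KO 3 and 4, against 2.69 and 1.52 CPM in those labelled WT. Neither set's genotypes overlapped. The log2 difference of Fanca was -1.98 ± 0.53 in libraries 1 and 2 (edgeR adjusted p = 0.17, DESeq2 adjusted p = 0.00491) and 3.54 ± 0.57 in libraries 3 and 4 (edgeR adjusted p = 6.3e-04).

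The reversal between the sets was itself tested. The genotype difference in libraries 1 and 2 minus that in libraries 3 and 4 was -8.65 ± 1.04 for Fancd2, -5.52 ± 0.78 for Fanca and -4.87 ± 0.80 for Fanci on the log2 scale (edgeR adjusted p = 1.56e-05, 1.02e-04 and 6.29e-04). These 3 of 10 passed, where 462 genes, 1.88% of those tested, passed in this direction and 3.92% in either. With transcript length offsets Fanci no longer passed (log2 difference -2.60, edgeR adjusted p = 0.102). For Mki67 the same quantity was -11.7 ± 0.91 and for Irx5 -4.20 ± 0.59. No other member passed, and the remaining 7 had edgeR adjusted p-values of 0.441 or more.

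**Figure D2:**
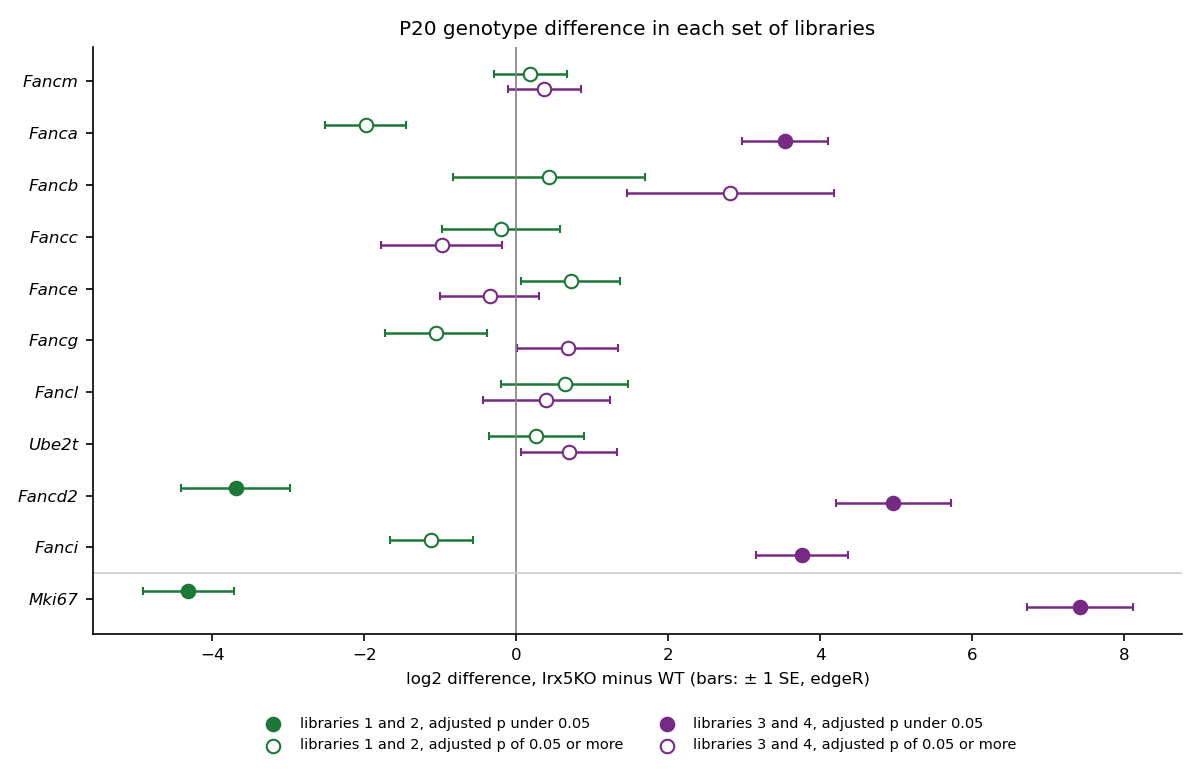
Log2 difference, Irx5KO minus WT, of each gene in P20 libraries 1 and 2 (green) and 3 and 4 (purple), with bars of 1 SE from edgeR and filled points where the adjusted p was under 0.05. Fancd2, Fanci and Fanca lie on opposite sides of 0 in the 2 sets, as Mki67 does, while the other 7 genes have open points in both sets.

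Fancm encodes the DNA translocase that recruits the core complex, and its gene sum was the steadiest of the 10 genes. Its highest value was 3.86 times its lowest, against 106 times for Fancd2, 33.9 times for Fanci, 17.95 times for Fanca and 353 times for Mki67. Fancm had 17.6 and 23.2 CPM in P20 Irx5KO libraries 1 and 2, against 18.6 and 17.3 CPM in WT libraries 1 and 2. It had 38.7 and 10.02 CPM in libraries labelled Irx5KO 3 and 4, against 20.2 and 17.4 CPM in those labelled WT. The libraries labelled Irx5KO 3 and 4 thus held its highest and its lowest value. Its log2 differences were 0.19 ± 0.48 and 0.37 ± 0.48 in the 2 sets, and the first changed sign to -0.11 with raw library sizes.

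Fancc encodes a core subunit that joins the complex to FANCE. It had 13.9 and 17.2 CPM in P20 Irx5KO libraries 1 and 2, against 19.4 and 16.2 CPM in WT libraries 1 and 2, overlapping ranges. The library labelled Irx5KO 4 had only 1.30 CPM, from 22 counts, where Irx5KO 3 had 14.03 CPM and WT 3 and 4 had 11.2 and 18.8 CPM. The log2 difference in libraries 3 and 4 was -0.98 ± 0.79 (edgeR adjusted p = 0.655), and without Irx5KO library 3 it became -3.52 (edgeR adjusted p = 0.00252), so that value rests on library 4. At P18 the 6 values lay between 14.7 and 32.7 CPM.

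Fance encodes the subunit that binds FANCD2. It had 8.16 and 8.55 CPM in P20 Irx5KO libraries 1 and 2, against 6.38 and 3.77 CPM in WT, ranges that did not overlap, with a log2 difference of 0.72 ± 0.65 that did not pass (edgeR adjusted p = 1). Libraries 3 and 4 had 13.5 and 5.96 CPM in those labelled Irx5KO, against 12.6 and 12.1 CPM in those labelled WT, with overlapping ranges. Fancg encodes a scaffold subunit that binds FANCA. It had 3.47 and 5.29 CPM in P20 Irx5KO libraries 1 and 2, against 11.2 and 7.04 CPM in WT, which did not overlap, and the log2 difference of -1.05 ± 0.67 did not pass (edgeR adjusted p = 0.936). Fancg in libraries 3 and 4 had 7.20 and 19.0 CPM in those labelled Irx5KO, against 5.35 and 11.1 CPM in those labelled WT, and the groups overlapped.

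Fancl encodes the ubiquitin ligase of the complex and Fancb an X-linked subunit that assembles with it. Fancl had 2.48 and 5.29 CPM in P20 Irx5KO libraries 1 and 2, against 1.94 and 3.05 CPM in WT, and 10.9 and 4.25 CPM in libraries labelled Irx5KO 3 and 4, against 5.47 and 6.03 CPM in those labelled WT. Both sets overlapped. Fancb was the least abundant of the 10 genes, with a median of 0.647 transcripts-per-million (TPM). It had 3.50 and 0.369 CPM in P20 Irx5KO libraries 1 and 2, against 1.402 and 1.46 CPM in WT, so the Irx5KO values lay on either side of WT. In libraries 3 and 4 it had 9.87 and 3.07 CPM in those labelled Irx5KO (133 and 52 counts), against 0.859 and 0.970 CPM in those labelled WT (22 and 14 counts). The groups did not overlap, but the log2 difference of 2.82 ± 1.36 did not pass (edgeR adjusted p = 0.324).

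Ube2t encodes the enzyme that carries the ubiquitin which FANCL directs onto FANCD2 and FANCI. It had 4.56 and 10.5 CPM in P20 Irx5KO libraries 1 and 2, against 3.82 and 8.75 CPM in WT. In libraries 3 and 4 it had 7.05 and 5.90 CPM in those labelled Irx5KO, against 3.04 and 4.99 CPM in those labelled WT, and the groups did not overlap. Its log2 differences were 0.27 ± 0.62 and 0.69 ± 0.63 in the 2 sets, and neither passed (edgeR adjusted p = 1 and 0.705). The first changed sign to -0.16 with raw library sizes.

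Per transcript length, the order of the median levels over the 14 libraries was Fanci (13.4 TPM), Fancc (9.85 TPM), Fance (9.495 TPM), Fancm (8.76 TPM), Fancg (8.33 TPM), Fancl (4.19 TPM), Ube2t (3.97 TPM), Fanca (3.76 TPM), Fancd2 (2.03 TPM) and Fancb (0.647 TPM). Neighbours in this order overlapped over the libraries. The order was not the same in every library. In the libraries labelled P20 Irx5KO 3 and 4, Fanca had 24.7 and 22.2 TPM and Fancd2 8.94 and 9.92 TPM, against 2.22 and 1.13 TPM of Fanca and 0.180 and 0.258 TPM of Fancd2 in those labelled WT 3 and 4.

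Setting each gene against Mki67 asked whether a gene moved as far as the proliferation marker did. Mki67 had 19.4 and 14.9 CPM in P20 Irx5KO libraries 1 and 2, against 503 and 180 CPM in WT, and 1352 and 1515 CPM in libraries labelled Irx5KO 3 and 4, against 12.3 and 4.30 CPM in those labelled WT. Its log2 differences were -4.32 ± 0.60 and 7.42 ± 0.69 (edgeR adjusted p = 7.91e-04 and 1.69e-06), and the first failed without Irx5KO library 2 (edgeR adjusted p = 0.0867).

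Fancd2 had the smallest genotype difference of the 10 genes in its ratio to Mki67 in both sets. Per 1000 Mki67 counts there were 20.3 and 82.6 Fancd2 counts in Irx5KO, against 25.4 and 45.9 in WT, with overlapping ranges. In libraries 3 and 4 there were 26.1 and 27.6 Fancd2 counts per 1000 Mki67 counts in those labelled Irx5KO, against 88.6 and 323 in those labelled WT, which did not overlap. For Fancm the same ratio was 908 and 1562 in Irx5KO libraries 1 and 2, against 36.9 and 96.6 in WT. These are ratios of counts and are not corrected for the lengths of the genes.

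In the edgeR fit with log Mki67 CPM in the offset, a gene's value is its own genotype difference minus that of Mki67, and the error of Mki67 enters every gene. In libraries 1 and 2 the value of Fancd2 was 0.52 ± 0.97 on the log2 scale (edgeR adjusted p = 0.636), an interval wide enough to hold sizeable differences either way, and that of Fanca was 2.00 ± 0.93 (edgeR adjusted p = 0.057). The other 8 of 10 genes were higher relative to Mki67, by 3.00 (Fanci) to 4.89 (Fance), and so were 53.5% of all 24591 genes tested. Without WT library 1 only 5 of the 10 passed, and Fancb (4.24 ± 1.90, edgeR adjusted p = 0.0485) lost its call under most other settings. Fancg and Fancl lost theirs without Irx5KO library 2 or WT library 1, and Fancg also with limma voom or protein-coding transcripts alone. Fanca gained a call under 6 settings, with edgeR adjusted p-values of 0.0256 to 0.046. All 10 genes in libraries 3 and 4 were lower relative to Mki67, as were 75.1% of all genes tested. Fancd2 had the smallest value, -2.88 ± 1.04 (edgeR adjusted p = 0.00865), followed by Fanci with -3.61 ± 0.92 and Fanca with -4.04 ± 1.02, while Fancc reached -8.87 ± 1.02. Fancd2 no longer passed there without Irx5KO library 3, Irx5KO library 4 or WT library 4 (-2.84, -2.92 and -1.72, edgeR adjusted p = 0.0729, 0.075 and 0.126), nor did Fancb without any of the same 3 libraries, nor Ube2t with protein-coding transcripts alone (edgeR adjusted p = 0.136).

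**Figure D3:**
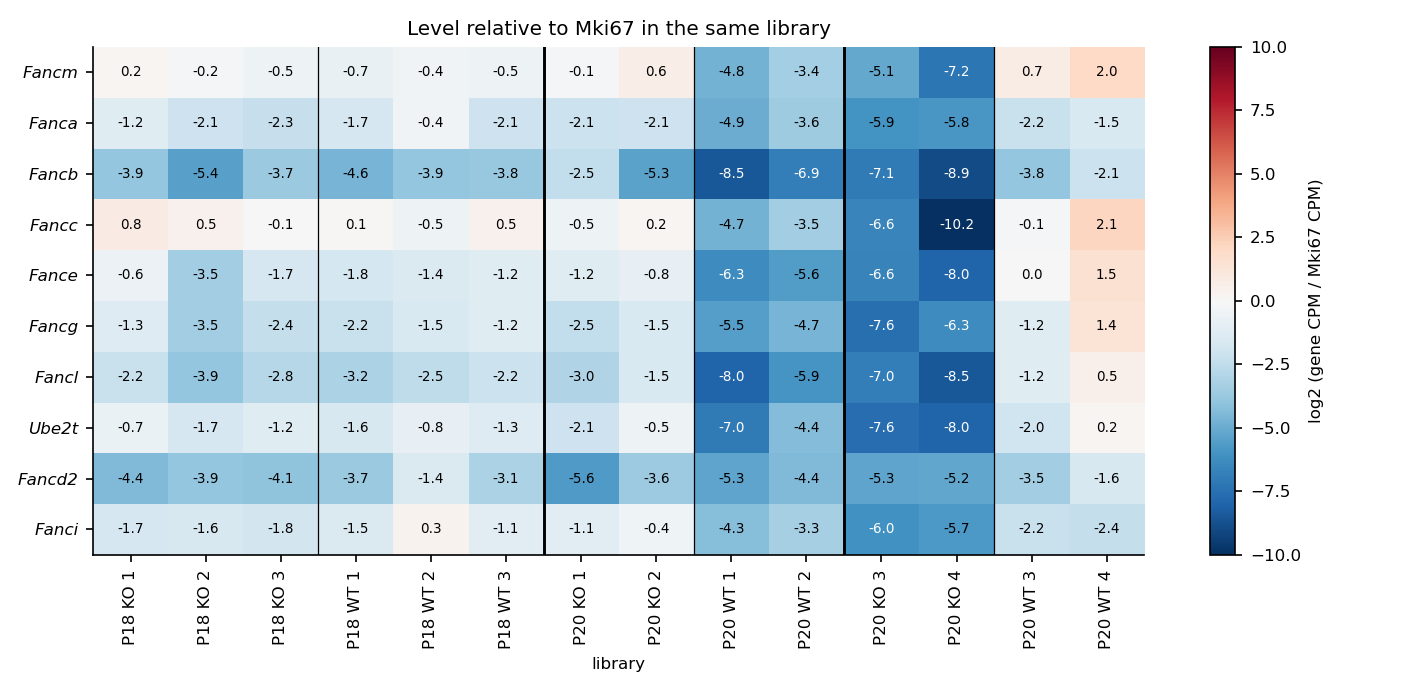
Log2 ratio of each gene's CPM to the Mki67 CPM of the same library, with libraries in columns and Irx5KO (written KO) left of WT in each set. For every gene but Fancd2 the 4 lowest ratios are those of P20 WT 1 and 2 and the libraries labelled Irx5KO 3 and 4, and Fancd2 spans the narrowest range, from -5.63 to -1.42.

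Among 12238 genes whose log2 CPM averaged 1 or more, those whose centred log2 CPM over the 14 libraries lay closest to Fancd2 were Hist1h2bh, Ccnb1, Nek2, Rad54b and Cenpe, with root mean square differences of 0.631 to 0.712. Mki67 lay at 1.22 from Fancd2, at 1.65 from Fanca and at 1.81 from Fanci, and at 2.04 to 3.29 from the other 7. The closest gene to Fanca (0.377) and to Fanci (0.547) was Shcbp1. The closest gene was Pdxk for Fancm, Exosc9 for Fancb, Micall2 for Fancc, Slc25a15 for Fance, Kctd7 for Fancg, Taf6l for Fancl and Meis2 for Ube2t. These distances share libraries, depth and scaling, and are given as a description.

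The estimated counts are per transcript, and for several of the genes the sum was not made of full-length messages. A full-span transcript is taken here as a spliced one that covers at least 90% of the gene and has at least 3 exons, whether or not it is annotated as coding. Fancd2 counts were mostly full-span (84.0% over all libraries, in Fancd2-201 and Fancd2-208), a share set by the libraries with most Fancd2. It was 9.77% and 58.4% in P20 Irx5KO libraries 1 and 2, against 96.4% and 82.8% in WT, and 0% in P18 Irx5KO library 2. For Fanci only 24.8% were, and most counts fell to 2 short transcripts from the 5′ end, Fanci-202 (38.8%, 10 exons) and Fanci-203 (30.1%, 4 exons). Full-span Fanci is the sum of the coding Fanci-201 and of Fanci-204, which is annotated as subject to nonsense-mediated decay. It had 0.0644 and 0.107 CPM in P20 Irx5KO libraries 1 and 2, against 14.7 and 3.69 CPM in WT. It had 11.6 and 24.5 CPM in libraries labelled Irx5KO 3 and 4, against 0.832 and 0 CPM in those labelled WT, and at most 1.85 CPM in any P18 library. Fanci-201 alone had 0 and 0 CPM in P20 Irx5KO libraries 1 and 2, against 12.0 and 2.80 CPM in WT. It had 10.3 and 24.5 CPM in libraries labelled Irx5KO 3 and 4, against 0 and 0 CPM in those labelled WT. At P18 it was above 0 only in Irx5KO library 3 (0.754 CPM). On the CPM scale the full-span part of Fanci, like the gene sum, separated the P20 genotypes without overlap in both sets. In TPM the Fanci sum overlapped in libraries 1 and 2, with 13.87 and 22.0 TPM in Irx5KO, against 16.6 and 22.1 TPM in WT. It did not overlap in libraries 3 and 4, with 17.2 and 10.2 TPM in those labelled Irx5KO, against 3.19 and 1.17 TPM in those labelled WT. The transcript values are model estimates, since kallisto divides reads in the shared exons among the transcripts, and they were not tested.

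The stretch where Fanci-202 leaves the full-length Fanci-201 shows what tells the transcripts apart. Both share the lower-case end of exon 10, whose last base is 79409266 on the plus strand of chromosome 7 (GRCm38), and the capitals are the next 20 bases of each, exon 11 in Fanci-201 and the read-through into the intron in Fanci-202.
Fanci-201: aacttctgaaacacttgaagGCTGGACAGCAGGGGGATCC
Fanci-202: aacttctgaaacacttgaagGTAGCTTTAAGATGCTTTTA

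Fanca was split at a different place, where both transcripts are spliced. Fanca-202, with 15 exons, held 42.5% of its counts and the full-length Fanca-201, with 43 exons, 17.0%. Both share exon 14, whose last base is 123304292 on the minus strand of chromosome 8, and the capitals are the next 20 bases of each, exon 15 in Fanca-201 and, in Fanca-202, an exon reached across an intron of 297 bases.
Fanca-201: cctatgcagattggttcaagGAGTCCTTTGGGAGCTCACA
Fanca-202: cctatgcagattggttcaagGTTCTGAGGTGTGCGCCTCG
Full-span Fanca had 1.34 and 0 CPM in P20 Irx5KO libraries 1 and 2, against 8.83 and 0.923 CPM in WT, and 1.75 and 0.8998 CPM in libraries labelled Irx5KO 3 and 4, against 0.278 and 0 CPM in those labelled WT. Most of the Fanca counts in the libraries labelled Irx5KO 3 and 4, 20.3 and 26.5 CPM, were assigned to partial transcripts, but not to Fanca-202, which held 0% and 3.26% there. In Irx5KO 3 the main ones were Fanca-204 (39.8%), Fanca-206 (20.5%) and Fanca-213 (20.1%). In Irx5KO 4 they were Fanca-210, a retained intron (37.5%), and Fanca-203 (28.7%), so the 2 libraries did not share them.

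For Ube2t the gene sum hardly reflects the messenger. A single-exon transcript annotated as a retained intron, Ube2t-203, held 87.6% of its counts, and protein-coding transcripts 4.87%. Ube2t-203 runs on from exon 1 without splicing; the capitals below are the first 20 intron bases after position 134962786 on the plus strand of chromosome 1.
Ube2t-203: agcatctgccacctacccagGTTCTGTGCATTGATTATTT
The library labelled P20 Irx5KO 4 was the exception, with 1.42 counts of Ube2t-203 and 70.6 counts of the coding Ube2t-201, which was above 0 in only 1 other library, P18 Irx5KO 3. Full-span Ube2t is the sum of the coding Ube2t-201 and of Ube2t-205, which is annotated as subject to nonsense-mediated decay. It had 1.86 and 4.16 CPM in libraries labelled Irx5KO 3 and 4, against 1.09 and 0.757 CPM in those labelled WT, and 0.332 and 0.926 CPM in Irx5KO libraries 1 and 2, against 0.776 and 0.810 CPM in WT. In every P20 library but the one labelled Irx5KO 4 these values were of Ube2t-205 alone, so they do not measure the coding message. Protein-coding transcripts held 19.2% of the Fance counts, 37.4% of Fancg and 48.6% of Fancm, against 100% of Fancb and 91.4% of Fanci. The steady gene sum of Fancm was not a steady coding message. The full-length coding Fancm-201 ranged from 0.0144 CPM in P18 WT library 2 to 32.1 CPM in the library labelled P20 Irx5KO 3. Fancm-207, annotated as subject to nonsense-mediated decay, held 70.3% of the Fancm counts in the first of these libraries and 0% in the second.

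**Figure D4:**
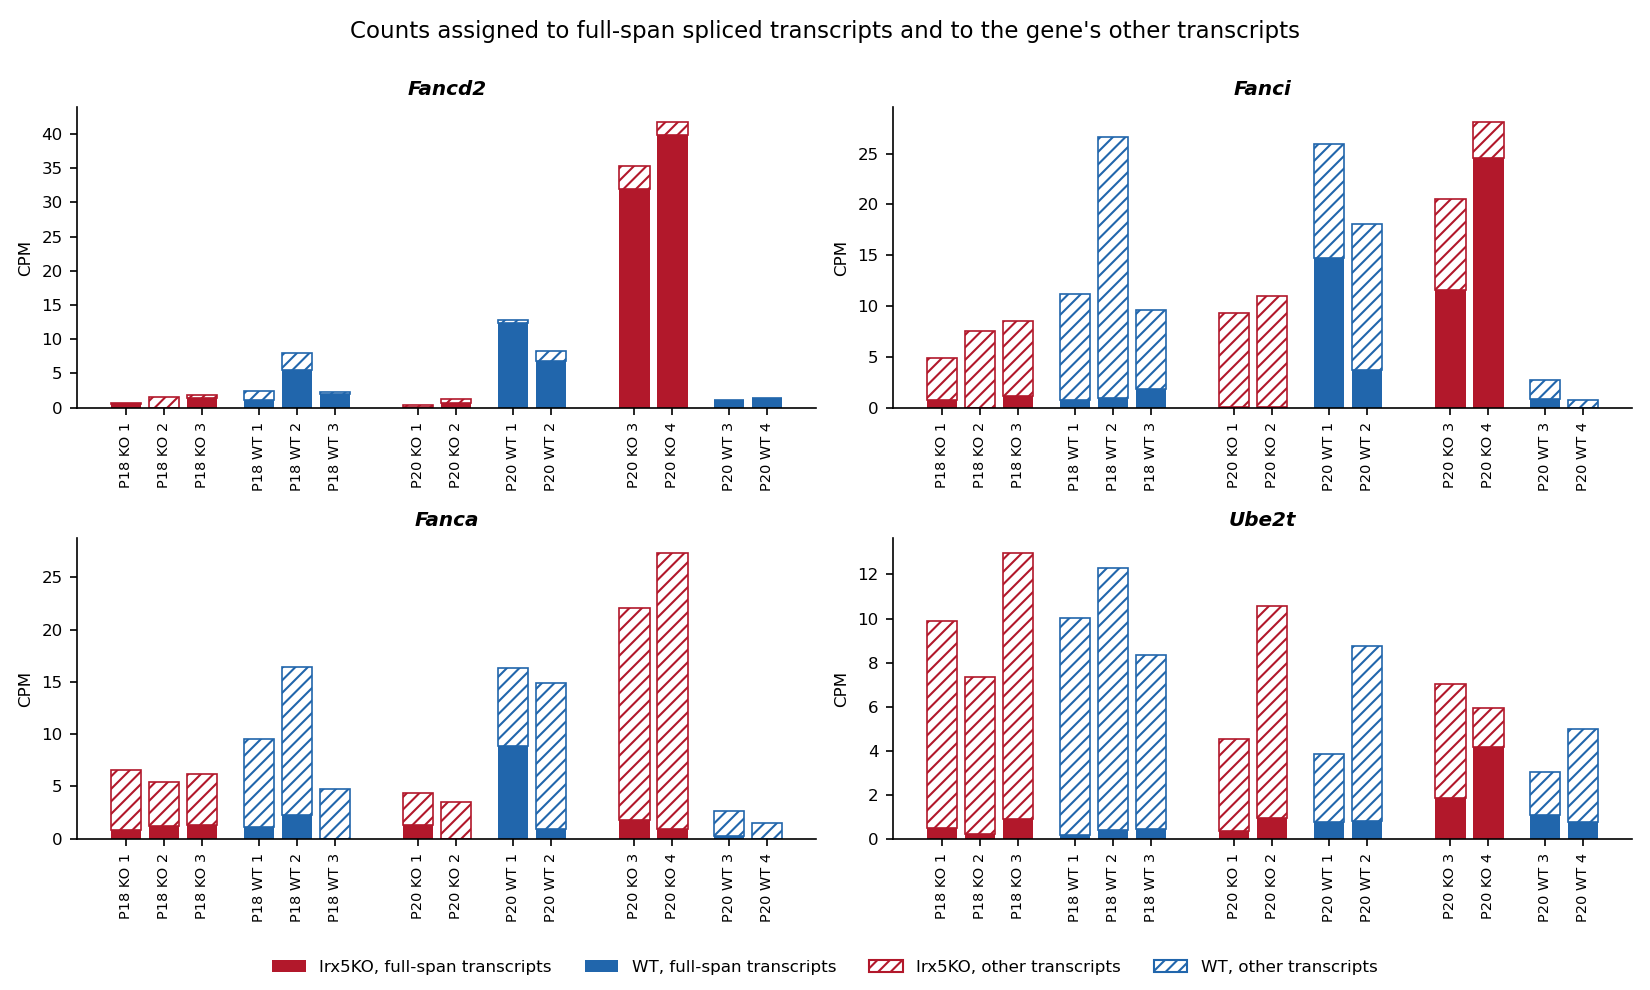
CPM assigned to full-span spliced transcripts (solid) and to all other transcripts of the gene (hatched) in each library, Irx5KO in red left of WT in blue. Fancd2 is mostly solid in the libraries where it is high, Fanci is solid mainly in P20 WT 1 and in the libraries labelled Irx5KO 3 and 4, and Ube2t is mostly hatched except in the library labelled Irx5KO 4.

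Reads from a gene on the opposite strand could not be told apart, since no strand setting was given. Of the 3 genes that moved, Fanci shares 921 of 5774 exonic bases with Polg, Fanca 920 of 8761 with Zfp276 and Fancd2 257 of 7937 with Fancd2os. Polg had 76.6 and 56.3 CPM in the libraries labelled P20 Irx5KO 3 and 4, against 79.1 and 67.9 CPM in those labelled WT. Zfp276 had 28.6 and 11.6 CPM, against 35.8 and 25.6 CPM in the same libraries, and Fancd2os 0 and 0 CPM, against 0 and 0.277 CPM. Fancd2os in P20 libraries 1 and 2 had 0 and 0 CPM in Irx5KO, against 0.678 and 1.12 CPM in WT, the same order as Fancd2 there. Polg had 63.4 and 78.9 CPM in these Irx5KO libraries, against 75.3 and 40.01 CPM in WT. Zfp276 had 23.2 and 22.1 CPM, against 21.2 and 10.6 CPM, the order opposite to that of Fanca. The part of these genes in the sums was not tested.

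Promoter sequences were available for 9 of the 10 genes in a RefSeq table (GRCm38.p6). In the 250 bases before the start site, the CCAAT box (CCAAT on either strand) was found in Fancm, Fanca, Fancb, Fancc, Fance and Ube2t, and in 33.9% of all 32851 promoters listed. The cell cycle homology region (TTTGAA on either strand) was found in none of the 9 and in 15.99% of all promoters. An E2F motif (TTTGGCGC, TTTCCCGC, TTTCGCGC or TTTGCCGC, either strand) was found in Fancg, and in 1.86% of all. Fanca is shown because it is the gene among those that moved whose window lies before every annotated transcript start, beside Mki67, in whose promoter both CCAAT and TTTGAA occur; capitals mark the matches. The Fanca window is chr8:123318577-123318676 and the Mki67 window chr7:135716380-135716529, both on the minus strand.
Fanca: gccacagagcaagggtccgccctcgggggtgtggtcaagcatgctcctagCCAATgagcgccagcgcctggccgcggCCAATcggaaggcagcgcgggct
Mki67: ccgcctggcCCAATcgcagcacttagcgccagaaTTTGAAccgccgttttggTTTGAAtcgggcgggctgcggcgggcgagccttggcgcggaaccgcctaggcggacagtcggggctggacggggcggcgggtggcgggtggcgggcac
A match is a string of letters in these windows and was not tested for any function.

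The rest of the pathway was followed in 31 other genes. In P20 libraries 1 and 2 only Brca1, a homologous recombination gene, passed, and it was lower in Irx5KO (log2 difference -3.97 ± 0.59, edgeR adjusted p = 0.00157). Of all genes tested 0.411% passed as lower there. Brca1 had 1.63 and 1.45 CPM there in Irx5KO, against 32.2 and 16.1 CPM in WT. In libraries 3 and 4, 7 of the 31 were higher in those labelled Irx5KO, where 1.58% of all genes tested passed as higher. Brca1 had 65.8 and 69.8 CPM in those labelled Irx5KO, against 0.742 and 0.277 CPM in those labelled WT (log2 difference 6.98 ± 0.70, edgeR adjusted p = 3.21e-06). The others included Eme1, a nuclease subunit (6.67 ± 1.39), the BRCA1-binding helicase Brip1 (3.45 ± 0.51), the ubiquitin ligase Rad18 of translesion synthesis (2.64 ± 0.51), the Bloom complex subunit Rmi2 (2.53 ± 0.61) and Brca2 (1.89 ± 0.53), with edgeR adjusted p-values between 2.41e-04 and 0.0474. The same 7 passed in the test of the difference between the sets, all as lower, where 1.88% of all genes passed as lower. None of the 6 other core partners, nor the deubiquitinase genes Usp1 and Wdr48, passed in either set.

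The median log2 difference of the 31 genes was -0.43 in libraries 1 and 2 and 0.31 in libraries 3 and 4, against -0.01 and 0.68 for the 10 members and -0.19 and -0.02 for all genes tested. Of 20 S phase genes 4 were lower in Irx5KO in libraries 1 and 2 and 11 higher in those labelled Irx5KO in libraries 3 and 4, with medians of -0.90 and 2.02. Of 20 mitosis genes 10 were lower and 18 higher, with medians of -3.09 and 6.13. Of all genes tested 0.411% passed as lower in libraries 1 and 2 and 1.58% as higher in libraries 3 and 4. No bulge marker passed in either set. Among markers of other cell types outside the hair germ and matrix, 2 passed, both lower in libraries labelled Irx5KO 3 and 4. The endothelial receptor Kdr had 0 and 0 CPM there, against 0.781 and 0.832 CPM in those labelled WT. The fibroblast receptor Pdgfra had 0.149 and 0 CPM, against 6.09 and 1.11 CPM. Between the genotypes of libraries 3 and 4, 4.18% of all genes tested passed in either direction. The fibroblast list did not follow Pdgfra as a sum, although 4 of its 5 markers were lower in those labelled Irx5KO. Summed, it had 320.7 and 311.6 CPM in those labelled Irx5KO, against 277.9 and 217.2 CPM in those labelled WT. The 7 granular and cornified epidermis markers summed to 5577 CPM in P20 Irx5KO library 1, against at most 2174 CPM in any other library. Of the 7 hair germ and matrix markers, Gli1 was lower in Irx5KO in libraries 1 and 2 (-1.91) and higher in those labelled Irx5KO in libraries 3 and 4 (1.90). The list as a whole did not follow Gli1 in libraries 3 and 4, where 5 of the 7 were lower in those labelled Irx5KO (median log2 difference -0.65). In libraries 1 and 2, 5 of the 7 were lower in Irx5KO (median -0.24). The part of these markers in the results was not tested. Summed, all 7 hair germ and matrix markers had 296 and 317 CPM in Irx5KO libraries 1 and 2, against 528 and 328 CPM in WT, and 631 and 493 CPM in libraries labelled Irx5KO 3 and 4, against 498 and 527 CPM in those labelled WT.

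**Figure D5:**
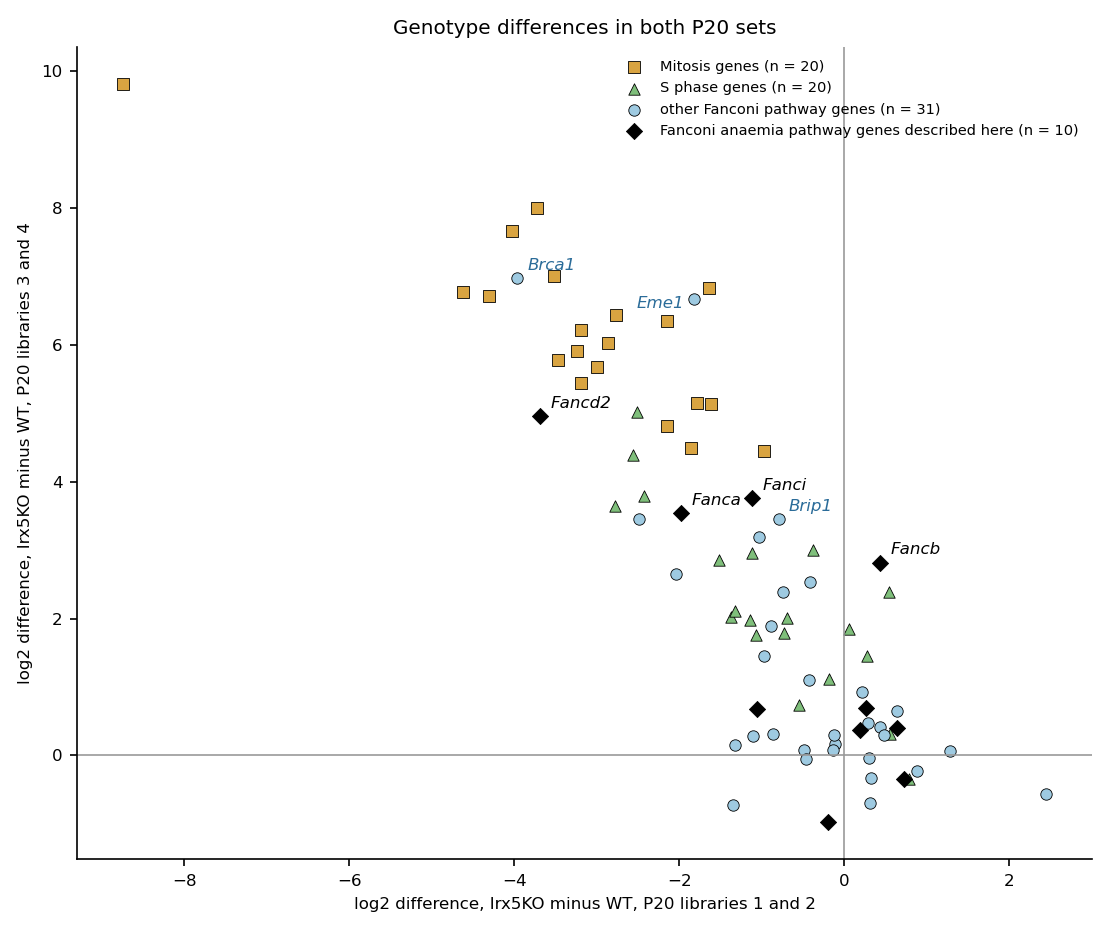
Log2 difference, Irx5KO minus WT, in P20 libraries 1 and 2 (x axis) against libraries 3 and 4 (y axis), 1 point per gene, for the 10 members (black), 31 other pathway genes (blue), 20 S phase genes (green) and 20 mitosis genes (orange). Fancd2 (-3.69, 4.96) and Brca1 (-3.97, 6.98) lie beside the mitosis genes, and the 31 other pathway genes have a median of -0.43 on the x axis.

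Pooled over the 2 sets, with the code as a covariate in edgeR, no member passed between P20 Irx5KO and WT. The number of members was 0 at an adjusted p under 0.05, where 0% of all genes passed in edgeR, and 0 with DESeq2 and limma voom. At an unadjusted p under 0.05 in edgeR it was 0 as well, beside 1004 of all 24592 genes. The pooled log2 differences of Fancd2, Fanca and Fanci were 0.62 ± 3.03, 0.75 ± 1.203 and 1.28 ± 1.12, averages of opposite values. Without libraries 3 and 4 the same fit gave -3.69, -1.97 and -1.11, and without libraries 1 and 2 it gave 5.05, 3.63 and 3.86, the last 3 with edgeR adjusted p = 0.00642, 0.00688 and 0.0137.

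At P18 the same comparison found 0 members at either threshold with edgeR, and 0 with DESeq2 and limma voom. Of all genes 0% passed at the adjusted threshold with edgeR, and 1195 of 24592 had an unadjusted p under 0.05. Fanci had 4.88, 7.51 and 8.53 CPM in P18 Irx5KO, against 11.2, 26.7 and 9.59 CPM in P18 WT, and Fanca 6.62, 5.46 and 6.17 CPM, against 9.53, 16.5 and 4.80 CPM. Fanci did not overlap and Fanca did, with the receptor-rich WT library 2 the highest for both. The log2 differences of Fancd2, Fanci and Fanca were -1.60 ± 2.03, -1.10 ± 1.15 and -0.35 ± 1.10 (edgeR adjusted p = 0.887, 0.859 and 0.966). That of Fanca turned to 0.23 without the 3 receptor-rich libraries. Without Irx5KO library 1 they became -0.44, -0.26 and 0.28, and without WT library 3 -3.48, -2.59 and -1.58, and none passed. Genes with a mean of at least 8 CPM had a median log2 difference of 0.35 in this comparison, against which the values may be read. Each code at P18 held only 1 library of 1 of the genotypes, so no value within a code is given.

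Between the ages, 0 of 10 members passed in Irx5KO (P20 minus P18), where 0.411% of all genes did with edgeR. At an unadjusted p under 0.05 in edgeR there were 2, Fancd2 (3.83 ± 1.53, edgeR adjusted p = 0.384) and Fancc (-1.34 ± 0.53, edgeR adjusted p = 0.358), beside 2849 of all 24592 genes. DESeq2 called 1, Fancd2, with 5.65% of all genes, and limma voom called 0. Without P20 libraries 1 and 2 the 3 genes Fancd2, Fanca and Fanci passed as higher at P20 (4.86, 2.09 and 1.86, edgeR adjusted p = 5.05e-04, 0.0218 and 0.0473), with 15.1% of all genes called in either direction. Without P20 libraries 3 and 4 the values of Fancd2 and Fanca were -0.76 and -0.62. In WT 0 members passed in edgeR at either threshold, and DESeq2 gave 0. Of all genes 0% passed at the adjusted threshold in edgeR, and 2499 of 24592 had an unadjusted p under 0.05. The 4 members that limma voom called, all lower, stood beside 65.7% of all genes called. The values of Fancd2, Fanca and Fanci in WT were 0.49 ± 1.32, -0.21 ± 0.81 and -0.41 ± 0.83, and that of Fancd2 turned to -0.09 with raw library sizes, in a comparison where genes with a mean of at least 8 CPM had a median of 0.42. Each age had its own codes, so age and code cannot be told apart.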

How the data were processed

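Per the labels' protocols, single-end reads of sorted cells from 14 libraries were assigned with kallisto 0.46.2, and the submitters' processing notes also name mm10 and DESeq2. The authors deposited, per the file headers, an estimated count, a TPM value (transcripts-per-million) and an effective length for each of 118489 transcripts. Of these, 116816 matched GENCODE vM21. Estimated counts were summed per gene and rounded, and TPM values were summed per gene.

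The fits used edgeR 4.0.16 under R 4.3.3 (TMM, expression filter by group, robust quasi-likelihood test, all 14 libraries, 24592 genes, call at a Benjamini-Hochberg adjusted p under 0.05 over all of them). SEs were derived from the fold change and its F statistic. P20 sets had a coefficient per code and genotype, pooled genotype fits the code within age, age fits no covariate. The Mki67 fits added log Mki67 CPM to the offset. The fits were tested on simulated data.

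Alternatives were DESeq2 1.42.0, limma 3.58.1 voom, other scalings and filters, length offsets and left-out libraries. At P18, the deviations of same-numbered Irx5KO and WT libraries had correlations of 0.362, 0.121 and 0.243. Those of the other pairs ran from -0.437 to 0.121, and no label gives a pairing. The members, lists and named-gene rule (all 10 members, passing pathway genes, transcripts with at least 10% of counts) were chosen with earlier results of these data known. Of the pathway genes that passed, 1 is not reported here by name.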

Additional observations from a re-analysis of the deposited data

Results flagged for a closer look

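The genotype difference at P20 differed between the libraries on the later code (1 and 2) and those on the earlier code (3 and 4) for 3 of the 10 genes, by a test of that difference in edgeR. Of all genes tested 3.92% passed that test in either direction. On the log2 scale, libraries 1 and 2 minus libraries 3 and 4, it was -5.52 for Fanca, -8.65 for Fancd2 and -4.87 for Fanci. Irx5 went against the labels in libraries 3 and 4 and had a value of -4.20 in the same test. Its part in these differences was not tested.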

How the results depend on the processing

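Of 1700 recomputed values, 1554 counted as unchanged. For tested values this meant the same direction and side of the threshold. For untested ratios it meant a shift of less than 1 SD within the groups. The 3 members called in P20 libraries 3 and 4, and for the difference between the sets, stayed within 1.5 times of that count under every alternative run, as did the 0 members at P18. In P20 libraries 1 and 2 the count of 1 became 2 without a filter on low counts and 2 with DESeq2 (1.95% and 1.88% of all genes called), and 0 with limma voom, transcript length offsets, protein-coding transcripts only or without P20 libraries 3 and 4. It ranged from 0 to 1 when each library was left out. For pooled P20 the count was 3 without P20 libraries 1 and 2 (4.42% of all genes). For P20 against P18 in Irx5KO it was 1 with DESeq2 (5.65%) and 3 without P20 libraries 1 and 2 (15.1%), and in WT it was 4 with limma voom (65.7%) and 2 without P20 libraries 1 and 2 (9.94%), the 4 being no larger a share than that of all genes. Relative to Mki67 in libraries 1 and 2 it ranged from 5 to 9 when each library was left out. Protein-coding transcripts only and the 2 left-out pairs of libraries were chosen after seeing the data. With the replicate number as a block the counts were 1, 3 and 3 in libraries 1 and 2, libraries 3 and 4 and their difference, 0 in the other comparisons, and 7 and 10 relative to Mki67, so the block ended 1 call, that of Fancb relative to Mki67. At P20 the deviations of same-numbered Irx5KO and WT libraries had correlations of 0.0863, 0.293, 0.0425 and 0.271. Those of the other pairs ran from -0.352 to 0.284, and not every library correlated best with its own number.

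Log2 differences that changed sign were small or pooled the 2 sets, and the cause was not tested. In libraries 1 and 2 they became -0.11 (Fancm) and -0.16 (Ube2t) with raw library sizes, -0.0013 and -0.035 without a filter, -0.31 (Fancb) with voom, -0.29 (Fancb) with the replicate block and 0.013 (Fancc) with length offsets. In libraries 3 and 4 they became -0.097 (Fancm) with voom, and for Fance 0.77 with length offsets and 1.29 with protein-coding transcripts. The log2 ratio of mean TPM of Fance there became -0.35 on CPM. Fancd2 relative to Mki67 in libraries 1 and 2 became -0.13 with protein-coding transcripts, and its ratio became -0.93 against the mean of the mitosis list. Without the receptor-rich libraries Fanca became 0.23 at P18 and 0.38 for age in WT. Without P20 libraries 3 and 4 pooled P20 became -1.97 (Fanca), -3.69 (Fancd2) and -1.11 (Fanci), age in Irx5KO -0.62 (Fanca) and -0.76 (Fancd2), and age in WT 0.64 (Fanca) and 0.51 (Fanci). Age in Irx5KO became -0.24 (Fanca) with voom. Age in WT of Fancd2 became -0.088 with raw library sizes, -0.074 with TMM over genes of at least 8 CPM, -0.41 with voom, -0.73 with length offsets and -2.32 without P20 libraries 1 and 2.

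With each library left out in turn, the values in libraries 1 and 2 ranged from -0.0303 to 0.37 (Fancm), -0.47 to 1.04 (Ube2t), -1.95 to 1.29 (Fancb) and -0.014 to 1.08 (Fancl), and in libraries 3 and 4 from -0.90 to 1.04 (Fancm), -0.43 to 0.92 (Fancl), -1.05 to 0.12 (Fance) and -0.19 to 1.29 (Fancg). Fanca ranged from -1.58 to 0.28 at P18, -0.58 to 2.08 in pooled P20 and -0.90 to 0.25 for age in WT. Fancd2 ranged from -2.04 to 3.31 in pooled P20, -0.26 to 1.28 for age in WT and -0.81 to 1.21 relative to Mki67 in libraries 1 and 2, and Fanci from -1.13 to 0.14 for age in WT. Counts of 12 to 40 behind the lowest Fancd2, Fanci and Fancb values limit their precision, and where a left-out library leaves 1 library, that library is assumed to vary like the others.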
